A study of Mus musculus with 6 samples.

Results

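Synaptotagmins and SNARE-family genes were compared between Uba3 cKO and control mouse oocytes. The set held every gene of the deposited table whose symbol begins with Syt, Sytl, Stx, Stxbp, Snap or Vamp followed by a number, which gave 55 of 28738 gene IDs. Of these, 46 passed a filter on low values and 9 did not. The oocytes were fully grown and at the germinal vesicle stage, the prophase arrest of the first meiotic division. The Uba3 cKO group carried a conditional knockout of Uba3, which encodes the catalytic chain of the NEDD8-activating enzyme, NEDD8 being a ubiquitin-like protein. Both groups were of the strain labelled C57/Bl6/N;129SvEv7. Each group had 3 libraries, and each library came from a pool of about 150 oocytes. The sources used here do not give the age of the mice, the Cre driver, the deleted stretch of the gene, or more on the controls' genotype than that word.

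Membrane fusion is driven by SNARE proteins, which zip together from a vesicle and its target membrane. Syntaxins and SNAP25-like proteins sit mainly on target membranes, VAMPs mainly on vesicles, and syntaxin-binding proteins of the Munc18 and tomosyn types assist or restrain the assembly. Synaptotagmins carry C2 domains, and some of them bind calcium and trigger fusion, while synaptotagmin-like proteins attach Rab27-bearing vesicles to their target. In the oocyte this machinery serves the release of cortical granules at fertilization, which remodels the zona pellucida and blocks further sperm. The set is wider than exocytosis, since it also holds syntaxins of the Golgi and endosomes, the clathrin assembly gene Snap91, which is no SNARE, and the pseudogene Vamp7-ps.

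The deposited values are on a log2 scale after the authors' normalization, and no depth is known for any library. Uba3 itself had 10.03, 10.16 and 10.36 in Uba3 cKO libraries, against 11.37, 11.46 and 11.34 in control libraries, a log2 difference of -1.21. This was 2.31-fold lower (limma, adjusted p = 2.07e-05), with no overlap between the groups. All 14 matched oocyte markers passed the filter, of which Dazl rose and Bmp15 and Zp2 fell (21.4% called, against 8.14% of all genes tested). Their summed linear values were 408222 to 451723 in Uba3 cKO and 456869 to 514152 in control libraries, also without overlap. Summed linear values of the theca, stroma and luteal markers lay between 2727 and 3474 in Uba3 cKO libraries, against 3834 to 5991 in control libraries. Of the 14 such markers that passed the filter 7 fell (50%), against 2.5% of all genes tested, and none rose. Those with the smallest adjusted p were Col3a1, Dcn, Acta2, Cyp11a1, Lhcgr and Col1a2, and Insl3 did not pass the filter. The sums of the granulosa and cumulus markers overlapped between the groups, at 20142 to 25363 in Uba3 cKO and 22426 to 30665 in control libraries. Of their 15 kept markers Kitl and Fshr rose and Inhba fell (20% called, against 8.14% of all genes tested). The sums of blood and immune markers were 547.1 to 598.2 in Uba3 cKO and 596.1 to 710.5 in control libraries, and those of endothelial markers 4061 to 4795 in Uba3 cKO and 4053 to 4380 in control libraries. In the blood and immune list 2 of 8 kept genes fell (25%, against 2.5% of all genes tested), C1qb by 0.35 and Hbb-bs by 0.36. In the endothelial list 1 of 8 (12.5%), Tie1, fell by 0.59. The neuronal and neuroendocrine markers summed to 6137 to 7703 in Uba3 cKO and 6399 to 8026 in control libraries. None of the 6 kept ones was called in limma, where 0 also had an unadjusted p under 0.05. Tubb3 and Scg3 were the highest of them, and the neuronal genes Syp, Syn1 and Snap25 lay below the filter.

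Most of the fusion genes were expressed, and a few dominated their families. Per kilobase of the longest annotated transcript, Stx5a, a syntaxin of traffic between the endoplasmic reticulum and the Golgi, had the highest linear level, 3284 ± 279 in Uba3 cKO and 3750 ± 396 in control oocytes (SD, n = 3 each). Sytl4, which encodes granuphilin, a Rab27 effector that docks secretory granules, came second with 2166 ± 43.4 in Uba3 cKO and 1943 ± 78.2 in control oocytes (SD, n = 3 each). It made up 83.6% ± 0.70 of the summed level per kilobase of the 5 synaptotagmin-like genes in Uba3 cKO and 84.3% ± 0.41 in control oocytes (SD, n = 3 each). Next was Snap47, a SNAP25 relative found on intracellular membranes, with 1067 ± 52.8 in Uba3 cKO and 1346 ± 180 in control oocytes. Further down, Vamp3 and Vamp4 lay close in the order and within their spread of each other. Vamp3, a VAMP of recycling endosomes, had 506 ± 79.5 and Vamp4, a VAMP of the trans-Golgi network, 454 ± 49.4 in Uba3 cKO oocytes, against 544 ± 94.4 and 448 ± 40.4 in control oocytes.

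The synaptotagmins summed to 788 ± 42.9 per kilobase in Uba3 cKO and 791 ± 26.0 in control oocytes, below the syntaxins with 5462 ± 335 in Uba3 cKO and 6151 ± 449 in control oocytes (SD, n = 3 each). Their level was shared among several genes. Syt16, a relative of Syt14, held 21.1% ± 1.34 of the summed level per kilobase of the 15 synaptotagmins in Uba3 cKO and 22.2% ± 1.25 in control oocytes (SD, n = 3 each). Syt1, the fast calcium sensor of synaptic vesicles, held 18.6% ± 1.11 in Uba3 cKO and 16.7% ± 0.98 in control oocytes. Syt7, a calcium sensor of high affinity and slow release, held 16.8% ± 0.32 in Uba3 cKO and 19.0% ± 0.65 in control oocytes. Genes of the synaptic SNARE complex were low: Snap25 and Stx1a lay below the filter, with mean log2 values of 2.21 and 3.19 in Uba3 cKO and 2.26 and 3.20 in control oocytes. Vamp2, the vesicle SNARE of synapses, passed it with 4.42 in Uba3 cKO and 4.39 in control oocytes. Also below the filter were Syt4, Syt6, Syt15, Syt17, Vamp5 and Vamp7-ps, with mean log2 values of at most 2.84 in either group.

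**Figure D1:**
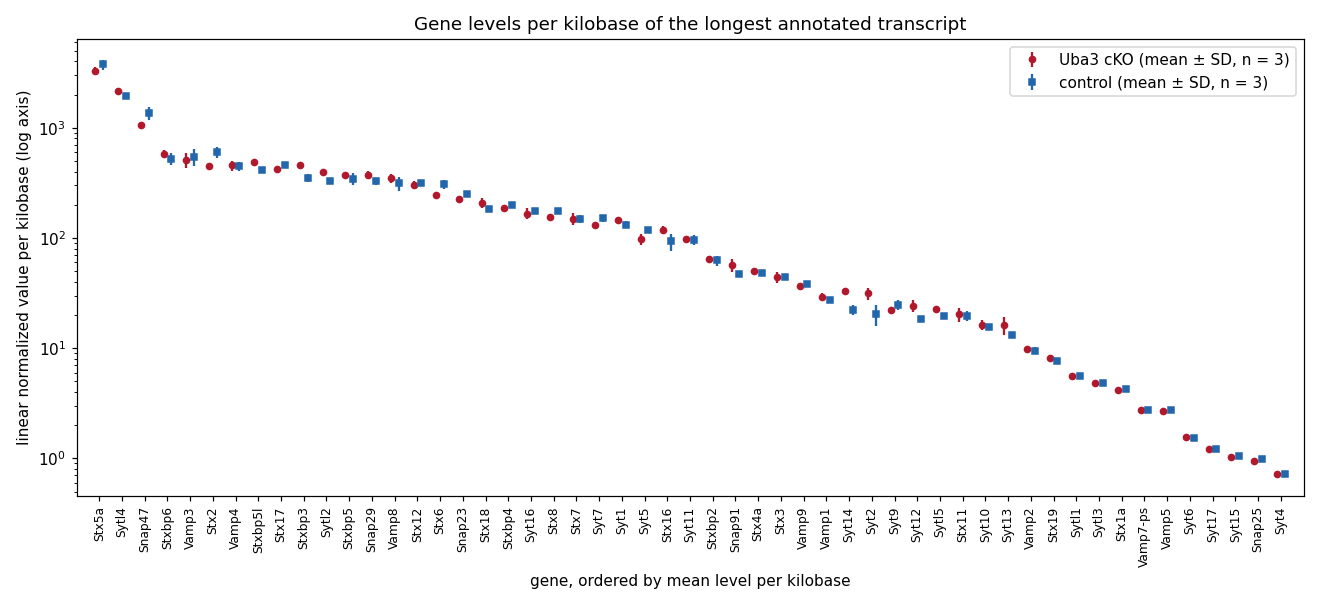
Linear normalized value per kilobase of the longest annotated transcript (log axis) for 53 of the genes in order of level, as mean ± SD of 3 libraries per group, with Uba3 cKO left of control. Stx5a, Sytl4 and Snap47 are the highest in both groups.

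In Uba3 cKO oocytes 4 genes of the set rose, Syt2, Syt14, Syt12 and Stxbp3, and 1 fell, Stx2. These were 5 of the 46 that passed the filter (10.9%), while 8.14% of all 17450 genes tested were called, 5.64% higher and 2.5% lower. The share of the set is thus near that of all genes, and the calls are results about single genes. A call is a Benjamini-Hochberg adjusted p under 0.05 over all genes tested, from limma with an intensity trend. The median log2 difference of the 46 genes was 0.04, against -0.01 over all genes tested. The groups did not overlap for 11 genes that were higher and 7 that were lower in Uba3 cKO oocytes (39.1%), against 15.1% and 12.8% of all genes tested, 27.9% together.

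Syt2, a fast calcium sensor closely related to Syt1, had the largest difference. Its log2 values were 7.91, 7.56 and 7.78 in Uba3 cKO libraries, against 7.44, 6.92 and 6.96 in control libraries. All Uba3 cKO libraries were above all controls, and control replicate 1 lay nearest to them. The difference was 0.64 (SE 0.14), or 1.56-fold higher (limma, adjusted p = 0.0125). Syt2 (ENSMUSG00000026452) is on chromosome 1, and the annotation places it across Ppp1r12b on the opposite strand, with no shared exon. Ppp1r12b had a log2 difference of -0.26, opposite in direction, and was not called. Leaving out 1 library ended the call of Syt2 in 4 of 6 cases, with adjusted p of 0.0575 without Uba3 cKO replicate 1, 0.0504 without Uba3 cKO replicate 3, 0.068 without control replicate 2 and 0.0715 without control replicate 3.

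Syt14, a synaptotagmin that does not bind calcium, showed the smallest adjusted p of the set. Its log2 values were 8.19, 8.28 and 8.27 in Uba3 cKO libraries, against 7.84, 7.54 and 7.66 in control libraries. The groups lay well apart, with an SD of 0.05 among Uba3 cKO and 0.15 among control libraries. The difference was 0.57 (SE 0.11), or 1.48-fold higher (limma, adjusted p = 0.00522). Syt14 (ENSMUSG00000016200) is also on chromosome 1. It was called under each of the 15 alternative settings tried, the 6 that leave out a library included, with adjusted p up to 0.0307. Syt16, which also lacks calcium binding and is the most abundant synaptotagmin per kilobase, had 10.38, 10.25 and 10.57 in Uba3 cKO libraries, against 10.54, 10.45 and 10.47 in control libraries. Its groups overlapped, with a difference of -0.08 and an interval from -0.30 to 0.14.

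Syt12, another synaptotagmin without calcium binding, rose at a lower level. Its log2 values were 6.58, 6.24 and 6.48 in Uba3 cKO libraries, against 6.12, 6.01 and 5.96 in control libraries. Uba3 cKO replicate 2 was the closest to the controls, still above all of them. The difference was 0.40 (SE 0.10), or 1.32-fold higher (limma, adjusted p = 0.0217). Syt12 (ENSMUSG00000049303, chromosome 19) shares exon bases with A930001C03Rik on the opposite strand, and the strand setting of the counting is not known. A930001C03Rik lay between 1.08 and 1.10 in all 6 libraries, below the filter. The same 4 omissions ended the call of Syt12, with adjusted p of 0.1 without Uba3 cKO replicate 1, 0.0752 without Uba3 cKO replicate 3, 0.0803 without control replicate 2 and 0.101 without control replicate 3.

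Stxbp3, which encodes Munc18c, a partner of plasma membrane syntaxins in regulated and constitutive secretion, was the only syntaxin-binding gene called. Its log2 values were 10.11, 10.04 and 10.15 in Uba3 cKO libraries, against 9.85, 9.60 and 9.73 in control libraries. The groups did not overlap. The difference was 0.38 (SE 0.10), or 1.30-fold higher (limma, adjusted p = 0.0351). Stxbp3 (ENSMUSG00000027882, chromosome 3) also has an annotated pseudogene, Stxbp3-ps, and how reads matching both were counted is not known. The call ended without any library other than control replicate 1 (adjusted p from 0.0509 to 0.118), without the filter (0.0573) and with the replicate number as a block (0.0536).

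Stx2, a plasma membrane syntaxin that also acts in cell division, was the gene that fell. Its log2 values were 10.45, 10.28 and 10.36 in Uba3 cKO libraries, against 10.57, 10.91 and 10.84 in control libraries. Each Uba3 cKO library was below each control, with Uba3 cKO replicate 1 and control replicate 1 nearest to each other. The difference was -0.41 (SE 0.11), or 1.33-fold lower (limma, adjusted p = 0.0327). Stx2 (ENSMUSG00000029428) is on chromosome 5. The call ended without any library other than control replicate 1 (adjusted p from 0.0639 to 0.138). The summed oocyte markers and the theca, stroma and luteal markers were lower in Uba3 cKO libraries as well. The oocyte sum is linear, so abundant genes weigh most in it: 5 of its 14 markers lay above 0 and 9 below. Control replicate 1 was also the control with the lowest theca, stroma and luteal sum (3834, against 5101 and 5991 in control replicates 2 and 3). The part of either marker list in the difference of Stx2 was not tested. In pooled oocytes fewer cells of a type and less RNA per cell cannot be told apart.

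**Figure D2:**
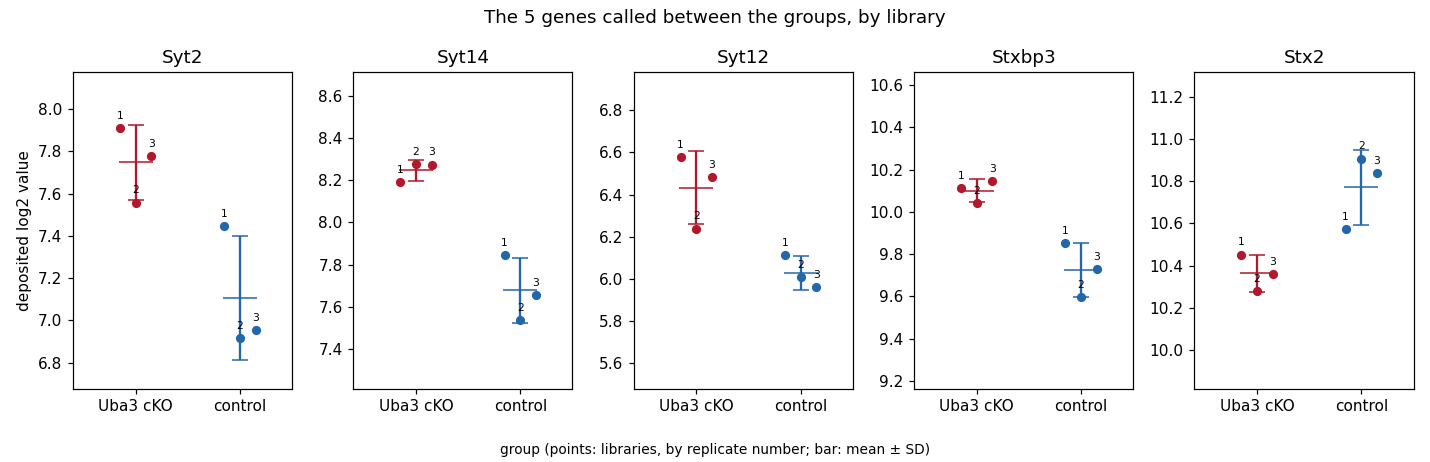
Deposited log2 value of Syt2, Syt14, Syt12, Stxbp3 and Stx2 in each library, Uba3 cKO left and control right, with replicate numbers at the points and bars for mean ± SD (n = 3). Each panel spans the same range, and the groups do not overlap in any of them.

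The sequences before the annotated start of the called genes are given for what they share, since 3 of them moved together and Stx2 moved the other way. RefSeq (GRCm38.p6) held a start for 42 of the 55 genes, Syt12 not among them. The 250 bases before the most upstream start are printed in the direction of the gene, with matches to 6 motifs in capitals, searched on both strands. They are the TATA box TATAAA, the CCAAT box with those letters, the GC box GGGCGG, the palindromic E-box CACGTG, the homeobox motif TAATTG and the cyclic AMP response element TGACGTCA. Matches may overlap each other. In the GENCODE M21 annotation, which differs in its starts, 24 bases of the Stxbp3 window and 2 of the Stx2 window lie in exons of those genes, and none of the Syt2 and Syt14 windows do. A stretch of bases shortly after the RefSeq start of Syt2 was found in no GENCODE M21 transcript of that gene, unlike those of Syt14, Stxbp3 and Stx2. Each stretch was sought as an exact match, and the bases directly at the start were not searched. RefSeq listed 2 starts for Syt2, and which start the oocytes use was not tested.
Syt2, chr1:134646362-134646611, plus strand: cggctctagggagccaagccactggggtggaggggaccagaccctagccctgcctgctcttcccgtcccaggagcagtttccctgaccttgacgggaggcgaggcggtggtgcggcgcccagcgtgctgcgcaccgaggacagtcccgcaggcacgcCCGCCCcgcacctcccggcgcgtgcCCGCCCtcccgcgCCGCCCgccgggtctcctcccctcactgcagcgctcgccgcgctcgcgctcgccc
Syt14, chr1:193035776-193036025, minus strand: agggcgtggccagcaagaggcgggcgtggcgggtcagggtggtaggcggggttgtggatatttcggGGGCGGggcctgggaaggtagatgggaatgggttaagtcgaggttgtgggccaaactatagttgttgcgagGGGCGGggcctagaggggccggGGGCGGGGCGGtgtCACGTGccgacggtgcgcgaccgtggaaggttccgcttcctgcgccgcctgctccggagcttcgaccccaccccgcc
Stxbp3, chr3:108840503-108840752, minus strand: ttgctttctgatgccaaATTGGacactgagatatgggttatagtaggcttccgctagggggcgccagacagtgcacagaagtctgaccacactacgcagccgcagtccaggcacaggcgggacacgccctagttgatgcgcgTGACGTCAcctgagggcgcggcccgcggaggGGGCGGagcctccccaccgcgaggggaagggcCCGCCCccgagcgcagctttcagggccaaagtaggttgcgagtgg
Stx2, chr5:129008573-129008822, minus strand: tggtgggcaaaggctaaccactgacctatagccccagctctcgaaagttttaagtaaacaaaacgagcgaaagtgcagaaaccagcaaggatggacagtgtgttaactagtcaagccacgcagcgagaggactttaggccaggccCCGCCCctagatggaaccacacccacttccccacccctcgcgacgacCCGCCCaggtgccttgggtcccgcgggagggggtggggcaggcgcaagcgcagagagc

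All 4 windows held the GC box, with 3 matches for Syt2, 4 for Syt14, 2 for Stxbp3 and 2 for Stx2. It was found in 23 of the 38 windows of genes that passed the filter (60.5%), in 54.3% of the 12046 windows of all genes tested and in 33.0% of the 27025 windows of all genes. The window of Stxbp3 also held TGACGTCA, found in 1.60% of all windows and 2.46% of those of genes tested. It held CCAAT as well, found in 34.5% of all windows and 36.5% of those of genes tested. That of Syt14 held CACGTG, found in 6.04% of all windows and 8.08% of those of genes tested. None of the 4 held TATAAA or TAATTG, found in 13% and 7.33% of all windows. Among windows of genes tested these 2 shares were 7.45% and 4.84%. The 38 windows had a median G and C content of 60.8%, against 58.8% over all genes tested and 52% over all genes. In the 4 printed windows it was 76.0% for Syt2, 69.2% for Syt14, 64.4% for Stxbp3 and 60.0% for Stx2. The part of this content in the matches to the GC box was not tested. Stx2 alone stands for the genes that fell, so these windows cannot tell whether the motifs go with the direction. A match is a description, not a binding site.

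Among the calcium-binding synaptotagmins Syt2 rose and none of the other 5 that passed the filter was called. Syt1 had log2 values of 9.52, 9.44 and 9.43 in Uba3 cKO libraries, against 9.19, 9.38 and 9.37 in control libraries, a difference of 0.15 with an interval from -0.06 to 0.36. Syt7 had 9.76, 9.72 and 9.84 in Uba3 cKO libraries, against 9.90, 9.90 and 10.06 in control libraries, a difference of -0.18 with an interval from -0.39 to 0.03. For both the groups did not overlap, but the adjusted p was 0.394 for Syt1 and 0.293 for Syt7 in limma. Syt5, a sensor of dense-core vesicles, had a difference of -0.29 (interval -0.52 to -0.05, adjusted p = 0.129). Syt9, close to Syt1 and Syt2 in function, had -0.14, and Syt10 had 0.08. Of the 5 synaptotagmins without calcium binding that passed the filter, Syt13 had 0.28 and Syt11, which restrains endocytosis, had 0.03, neither of them called.

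None of the 5 synaptotagmin-like genes was called, and 3 of them did not overlap between the groups, all higher (60%, against 15.1% of all genes tested). Sytl4 had log2 values of 12.97, 12.97 and 13.02 in Uba3 cKO libraries, against 12.84, 12.88 and 12.77 in control libraries, a difference of 0.16 with an interval from -0.01 to 0.33. Sytl2, a Rab27 effector of melanosomes and epithelial secretion, had a difference of 0.25 (interval 0.05 to 0.44, adjusted p = 0.117). Sytl5 had 0.19 (interval 0.04 to 0.34, adjusted p = 0.119), and Sytl1 and Sytl3, near the filter, had -0.01 and -0.02. The adjusted p-values here are from limma, and 2 of the 5 genes had an unadjusted p under 0.05, as did 22.8% of all genes tested. Rab27a, the small GTPase these proteins bind, had a difference of 0.13 and was not called.

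Of the plasma membrane syntaxins that passed the filter only Stx2 was called. Stx4a, the main partner of Munc18c, lay far below Stx2, with 50.3 ± 1.21 per kilobase in Uba3 cKO and 48.2 ± 3.36 in control oocytes (SD, n = 3 each), and differed by 0.06 (interval -0.11 to 0.24). Stx3, a syntaxin of apical membranes, differed by 0.01, Stx11 of immune cells by 0.03 and Stx19 by 0.08. Stx2 held 8.22% ± 0.24 of the summed level per kilobase of the 15 syntaxins in Uba3 cKO and 9.70% ± 0.53 in control oocytes (SD, n = 3 each). Whether its change differed from those of Stx3 and Stx4a was not tested.

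None of the 8 intracellular syntaxins was called, and 2 of them had an unadjusted p under 0.05 (25%, against 22.8% of all genes tested). Stx6, of the trans-Golgi network and endosomes, had log2 values of 10.13, 10.21 and 10.06 in Uba3 cKO libraries, against 10.28, 10.54 and 10.53 in control libraries, a difference of -0.32 (interval -0.54 to -0.10, adjusted p = 0.0744 in limma). Stx16, its partner in transport from endosomes to the trans-Golgi network, had 8.82, 8.74 and 8.95 in Uba3 cKO libraries, against 8.69, 8.17 and 8.55 in control libraries, a difference of 0.36 (interval 0.08 to 0.64, adjusted p = 0.108 in limma). These 2 partners lay on opposite sides of 0, each with groups that did not overlap. Stx8 and Stx17, both lower, had no overlap either. In all, 1 of the 8 intracellular syntaxins was higher and 3 lower without overlap (50%, against 27.9% of all genes tested). Stx5a had 13.34, 13.12 and 13.34 in Uba3 cKO libraries, against 13.31, 13.62 and 13.45 in control libraries, overlapping groups with a difference of -0.19 (interval -0.40 to 0.02). The other differences were 0.17 for Stx18 of the endoplasmic reticulum, -0.17 for Stx8, -0.11 for Stx17 of autophagosomes, -0.05 for Stx12 and -0.01 for Stx7.

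Of the 7 syntaxin-binding genes 6 lay above 0. After Stxbp3, the largest difference was that of Stxbp5l, a tomosyn that restrains SNARE assembly, with 0.25 (interval 0.05 to 0.44, adjusted p = 0.12 in limma). Stxbp5, the other tomosyn, had 0.11. Stxbp6, which encodes amisyn, was the most abundant per kilobase of them, with log2 values of 11.29, 11.31 and 11.48 in Uba3 cKO libraries, against 11.15, 11.40 and 11.06 in control libraries, overlapping groups with a difference of 0.16. Stxbp2, a Munc18 gene of secretion outside neurons, had 0.05, and Stxbp4, a partner of Stx4, had -0.08.

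Of the SNAP-named genes none was called. Snap23, a SNAP25 relative that acts in cortical granule release of mouse eggs, had log2 values of 9.34, 9.20 and 9.29 in Uba3 cKO libraries, against 9.31, 9.42 and 9.51 in control libraries, overlapping groups with a difference of -0.14 (interval -0.35 to 0.08). Snap47 had 11.06, 10.92 and 10.96 in Uba3 cKO libraries, against 11.12, 11.50 and 11.31 in control libraries. Its groups did not overlap, and its difference of -0.33 (interval -0.56 to -0.10) had an adjusted p of 0.0784 in limma. Snap29, which acts with Stx17 and Vamp8 in autophagy, had a difference of 0.20 (interval -0.02 to 0.42), and Snap91 had 0.27 (interval 0.03 to 0.52, adjusted p = 0.164 in limma).

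The 6 VAMP genes that passed the filter had differences from -0.10 to 0.16, and in none of them were the groups apart. None was called in limma, and 0 had an unadjusted p under 0.05. Vamp3 had log2 values of 9.80, 10.25 and 10.12 in Uba3 cKO libraries, against 10.26, 10.35 and 9.85 in control libraries, mixed across the groups, with a difference of -0.10 (interval -0.40 to 0.20). Vamp8, of endosomes and secretory granules, had 0.16 (interval -0.09 to 0.42), and Vamp1, Vamp2, Vamp4 and Vamp9 had 0.09, 0.04, 0.02 and -0.06.

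**Figure D3:**
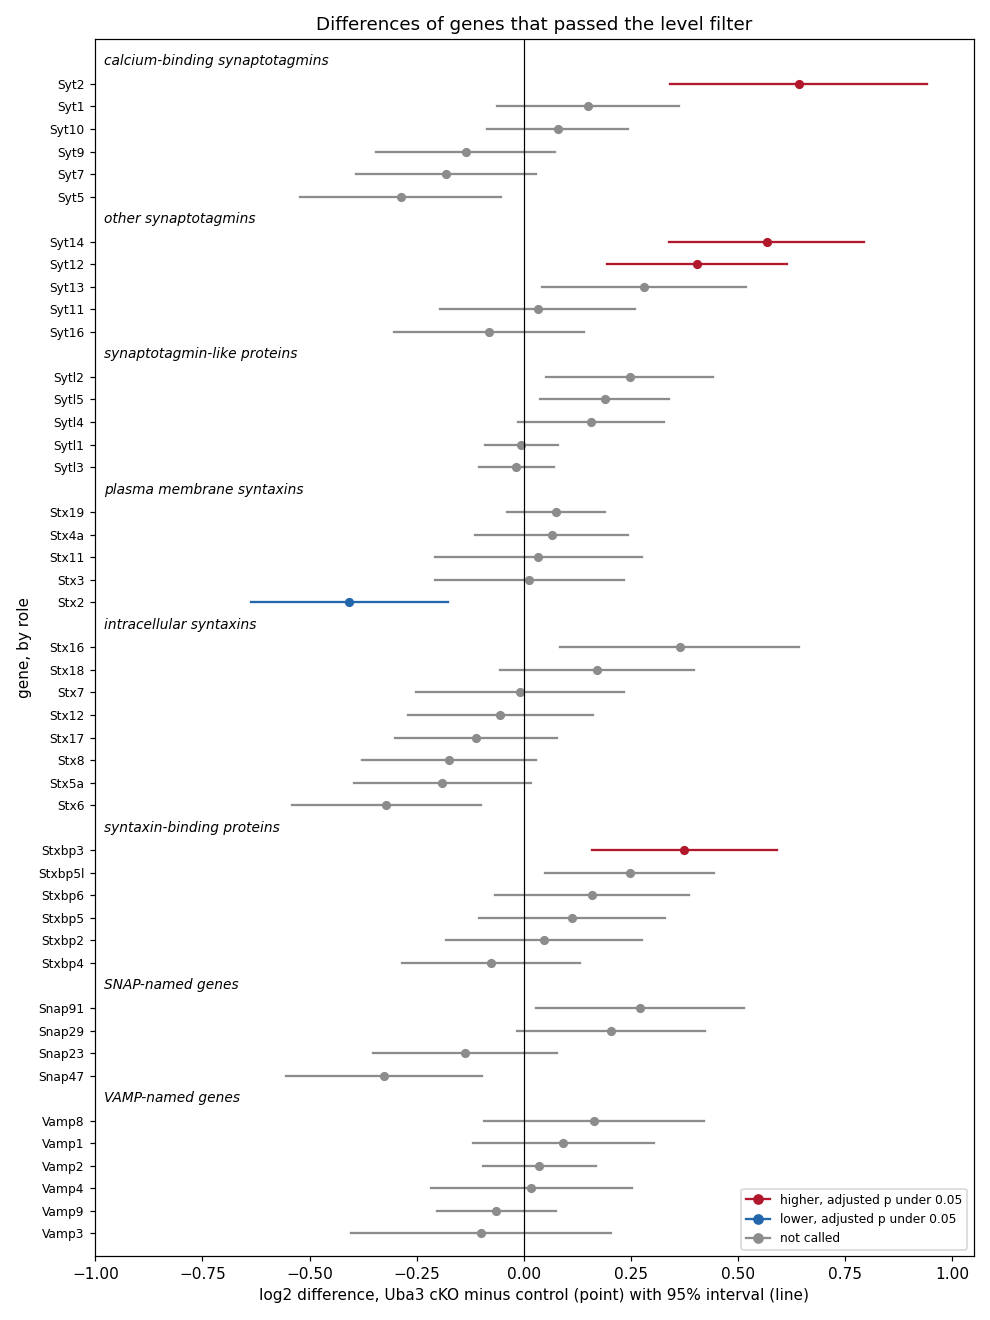
Log2 difference (Uba3 cKO minus control, points) with its 95% interval (lines) for 45 of the genes that passed the filter, by role. Syt2, Syt14, Syt12 and Stxbp3 were called higher, Stx2 was called lower, and the VAMP genes lie between -0.10 and 0.16.

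**Figure D4:**
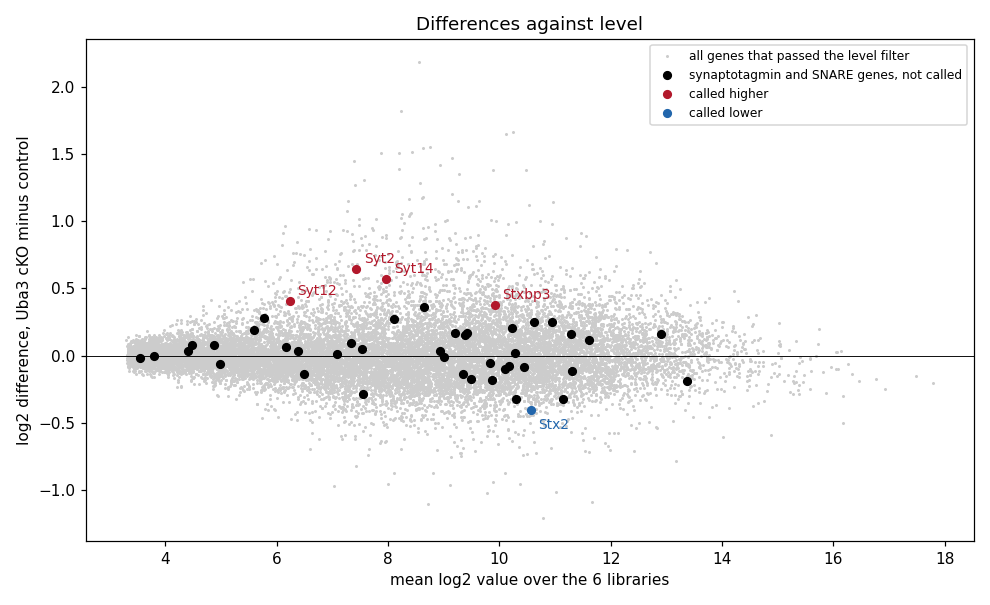
Log2 difference (Uba3 cKO minus control) against the mean log2 value over the 6 libraries for all 17450 genes tested (grey) and 45 synaptotagmin and SNARE genes (black, or coloured where called). The 5 called genes lie within the cloud of all genes, and differences are small at low levels.

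The partners of these proteins were described from lists of other fusion genes. Of 51 kept docking and fusion partners 1 rose and 1 fell (3.92%, against 8.14% of all genes tested), with a median difference of -0.03. Unc13c, a Munc13 protein that primes vesicles for release, had log2 values of 12.64, 12.53 and 12.82 in Uba3 cKO libraries, against 12.33, 11.98 and 12.12 in control libraries. All Uba3 cKO libraries were higher, by 0.52 (SE 0.11, adjusted p = 0.00803 in limma), and the call ended without Uba3 cKO replicate 3 (adjusted p = 0.0532). Scfd2, of the Sec1 and Munc18 family, fell by 0.39 (adjusted p = 0.0318 in limma), a call that ended without any library other than control replicate 1 (adjusted p up to 0.116). Nsf, the ATPase that takes SNARE complexes apart, had a difference of -0.10, and its adaptors Napa and Napg had -0.18 and -0.03. None of 13 other SNARE genes was called in limma, and 0 had an unadjusted p under 0.05, with Sec22a (0.06) and Gosr2 (-0.15) the highest in level.

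Of 17 kept other C2 domain genes 1 rose and 1 fell (11.8%, against 8.14% of all genes tested), with a median of -0.02. Fer1l6, of the ferlin family, had log2 values of 8.30, 7.97 and 8.37 in Uba3 cKO libraries, against 6.97, 6.84 and 6.92 in control libraries. The groups lay far apart, with a difference of 1.31 (SE 0.11) and an adjusted p of 2.08e-05 in limma, and it was called under all 15 alternative settings. The related Otof, Dysf and Myof differed by 0.14, -0.18 and 0.01 and were not called. Cpne7, a copine, fell by 0.25 (adjusted p = 0.0461 in limma), a call lost without each library in turn (adjusted p up to 0.145).

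Of 20 kept genes of the cortical granules, zona and egg activation 1 rose and 3 fell (20%, against 8.14% of all genes tested), with a median of -0.04. Prkcb, a protein kinase C activated by calcium, rose by 0.54 (SE 0.10, adjusted p = 0.00521 in limma), and was called under all 15 alternative settings. Hspa5, a chaperone of the endoplasmic reticulum, fell by 0.41, Zp2, a zona glycoprotein, by 0.30 and Pla2g4c, a phospholipase, by 0.28, with adjusted p of 0.0249, 0.01 and 0.027 in limma. These 3 calls ended under some settings (adjusted p up to 0.135 for Hspa5, 0.0543 for Zp2 and 0.166 for Pla2g4c). Astl, the cortical granule protease that cleaves ZP2, had 13.49 in Uba3 cKO and 13.46 in control oocytes, a difference of 0.03.

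**Figure D5:**
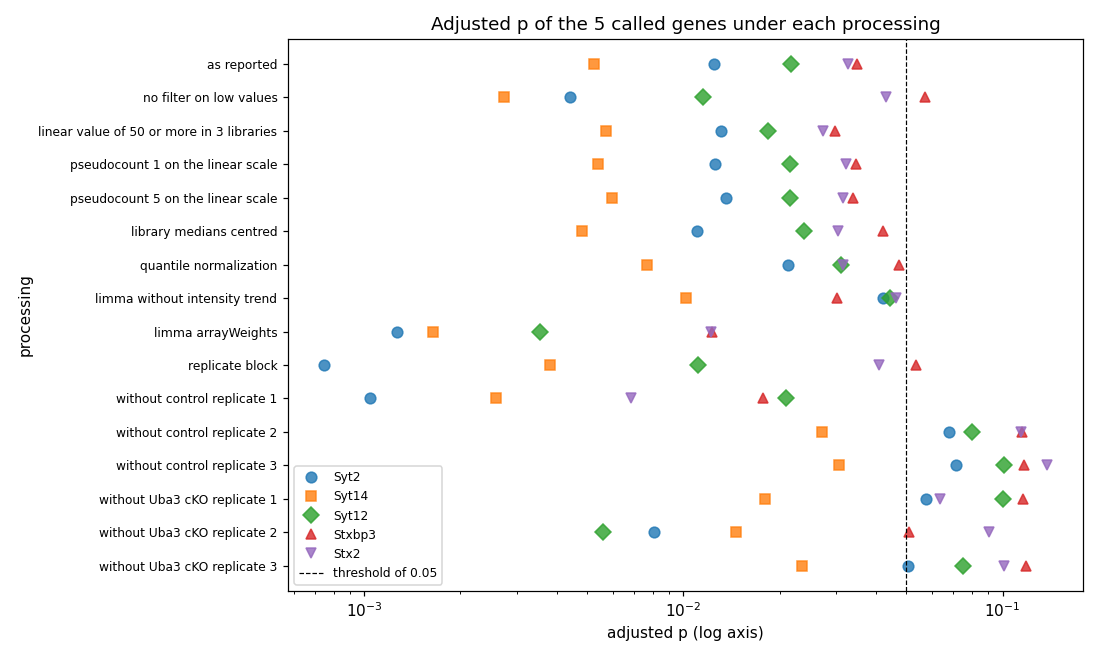
Adjusted p (log axis) of the 5 called genes as reported and under the 15 alternative settings, with the threshold of 0.05 as a dashed line. Syt14 stays below 0.05 throughout, while the other 4 lie above it when Uba3 cKO replicate 1 or 3, or control replicate 2 or 3, is left out.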

How the data were processed

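RNA sequencing of 3 Uba3 cKO and 3 control libraries was used, grouped by their titles. Per the labels' protocols, a PicoPure kit gave the RNA and a TruSeq RNA kit the libraries. The submitters' processing notes list GRCm39, DESeq2, featureCounts, STAR and fastp without roles or versions. The strand setting and the handling of reads with several matches are not given in the sources used here. Values in the deposited table are log2, put on a common library scale by the authors. The transform is not named, and differences at low levels may be shrunken. No counts were used, so depth and counting error are unknown, and the 6 libraries limit the precision.

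Symbols came from a reference list of gene names, filled in from GENCODE M21, for 27660 of 28738 IDs. Transcript lengths came from GENCODE M21. This is an older build, so gene coordinates are given for RefSeq promoters only. Genes with a linear value (the log2 undone) of 10 or more in at least 3 libraries were kept, 17450 in all. The test was limma 3.58.1 (R 4.3.3), its trend option on, with no pseudocount. Differences are Uba3 cKO minus control, and intervals are 95% intervals from limma. With 3 against 3 libraries an exact permutation test of a single gene cannot go below 0.1, so none is given. Separate animals per pool are not stated in the labels: the p-values reflect spread among these pools alone. The fit was also run on simulated data, a check of the fit alone and not of the calls reported here. A gene not called is not shown to be unchanged. Alternatives covered the filter (none, or 50), pseudocounts of 1 and 5, library scaling, sample weights, no trend, a replicate block and leaving out each library.

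Members, lists and tests were chosen with earlier results of these data known. Members were named, except 2 that are not reported here by name and are left out of the figures' gene points, though counts and sums include them. Per-library values were given for called members, the most abundant of each family per kilobase, the 3 largest differences not called and, chosen after their values were seen, Syt1, Syt7 and Snap23. Of the other lists, called genes were named (at most 6 a list, by adjusted p), or the 2 highest where none was called, and further partners were named after their values were seen.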

Additional observations from a re-analysis of the deposited data

How the results depend on the processing

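Of the 5 called genes, Syt14 kept its call under all 15 alternatives, Syt2 and Syt12 under 11, Stx2 under 10 and Stxbp3 under 8, and all 5 kept their direction. With sample weights the counts were 7 higher and 4 lower in the set, adding Sytl2, Stxbp5l and Syt13 to those higher and Snap47, Stx6 and Syt5 to those lower. The lower calls over all genes were then 829, and the partner calls 5 higher and 9 lower against 3 and 5 as reported. Partner calls that were lower numbered 3 under quantile normalization and 3 without the intensity trend. With the replicate block 3 genes of the set were higher and 1 lower, with 899 higher and 359 lower over all genes, and 3 and 4 partners. Same-numbered deviations of the 2 groups correlated at -0.09, -0.20 and -0.05, and differently numbered ones at -0.20 to 0.28. Correlations of this kind cannot tell how the pools were made, so whether libraries were paired is not known. Among named genes the block ended only the calls of Stxbp3 in the set and of Cpne7 and Pla2g4c among the partners named (adjusted p = 0.0804 and 0.0605). Leaving out 1 library gave 1 to 5 higher and 0 to 3 lower in the set, 482 to 1014 higher and 136 to 623 lower over all genes, and 2 to 5 higher and 1 to 5 lower among partners. Without control replicate 1, Snap47, Stx6 and Stx16 were called as well. Of the 41 genes not called, 12 changed sign under at least 1 alternative, all with a reported difference of at most 0.10 in size, and 7 were called under at least 1. Depth is unknown, so no limit of detection is given.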
